A study of Saccharomyces cerevisiae with 30 samples.

Results

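Transcript levels were measured on 6 of the 30 Affymetrix yeast arrays of the study, which come from 2 of its 12 groups. They hold the SOCS-box mutant of *RAD7*, called psocs, 60 min after UV irradiation (3 arrays) and the same strain untreated (3 arrays), and they were chosen by these 2 labels alone. Both groups are *Saccharomyces cerevisiae* BY4742 cells in which the chromosomal *RAD7* is deleted and a *HIS3* plasmid supplies a copy whose SOCS box carries point mutations, while *RAD23* is intact. Per the labels and the methods, cultures were kept at 30°C without histidine until late log phase, and the irradiated ones received 100 J/m2 at 254 nm. Beside them stand the psocs arrays at 15 min (3), the strain with the wild-type *RAD7* plasmid, called pRAD7, at 60 min (3) and untreated (3), and psocs cells that also lack *RAD23*, called psocs *rad23*Δ, at 60 min (2) and untreated (2).

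Rad7 works with Rad16 and Elc1 in a ubiquitin ligase that serves global genome repair, the branch of nucleotide excision repair that cuts UV lesions out of non-transcribed DNA. Its SOCS box is the region that links the ligase to the rest of the ubiquitination machinery, and Rad4, which recognises lesions together with Rad23, is the known target. In yeast, damage to DNA activates the Mec1, Rad53 and Dun1 kinases, which relieve the repressor Crt1 (the product of *RFX1*) from the ribonucleotide reductase genes, and severe stress of many kinds also raises a common set of protective genes and lowers the genes of ribosome production. The comparison asks how far cells without a working Rad7 SOCS box mount these responses 60 min after UV. The labels used here describe no mock-irradiated cells sampled after 60 min, so the effect of UV and that of the time and handling since irradiation cannot be told apart.

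The replicate arrays were alike. Spearman's correlation over all genes was 0.956 at its lowest within the irradiated arrays and 0.950 within the untreated ones, and between the groups it lay from 0.613 to 0.728. The probe set for *RAD7* read 48.0, 31.3 and 43.8 at 60 min and 41.5, 41.0 and 50.3 in untreated psocs cells. *RAD7* was the only gene called between untreated psocs and untreated pRAD7 cells, and it was lower in psocs cells. The alpha cell genes that BY4742 should express summed to 16836, 14611 and 12252 at 60 min and to 23162, 20994 and 29413 untreated over 4 genes. The 7 genes of a cells summed to 364, 435 and 301 at 60 min, against 266, 240 and 175 untreated, and 6 of them lay below the filter on dim genes, as did all 20 sporulation genes. In the control transcripts that are read at both ends, irradiated replicate 1 stood apart: its 3′ to 5′ ratio was 0.773 for *ACT1* and 9.67 for *SPT15*, against 1.22 and 1.23 for *ACT1* and 3.03 and 2.89 for *SPT15* on the other irradiated arrays. The part of this difference in the results was not tested, and counts without that array are given with the other alternatives.

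Most of the genes measured differed between irradiated and untreated cells. A change is given as the log2 difference between 60 min and untreated, with the standard error of limma, after each array was centred on its median, and calls needed an adjusted p below 0.05 across the 4242 genes tested. Of these, 2748 (64.8%) were called, 1307 higher (30.8%) and 1441 lower (34.0%), and 2866 had an unadjusted p under 0.05. At least 2-fold changes numbered 620 higher (14.6%) and 704 lower (16.6%), together 31.2%, and at least 4-fold changes numbered 202 higher (4.76%) and 208 lower (4.9%). In 2847 genes (67.1%) no irradiated array overlapped an untreated one, 1364 with the irradiated arrays above (32.2%) and 1483 with them below (35.0%). These shares are the background for the counts and the separate arrays given below. The median change of all genes was -0.06 once arrays were centred, against 0.14 in the deposited values, where 59.3% of the called genes were higher in place of 47.6%, so that small changes depend on the centring. On bulk arrays, fewer cells of a type and less RNA per cell cannot be told apart.

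**Figure D1:**
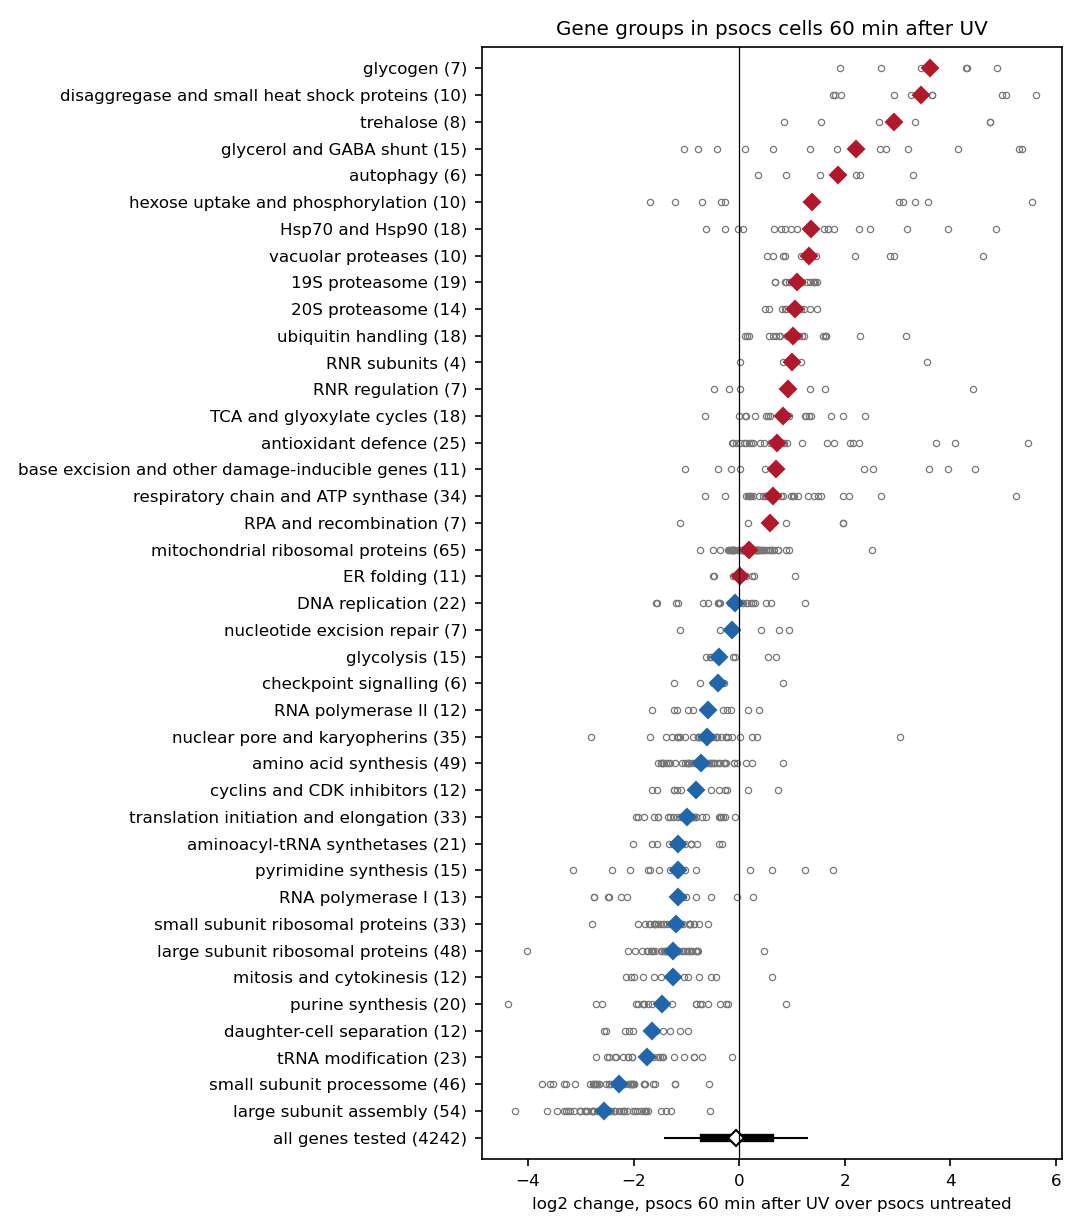
Change of gene groups in psocs cells 60 min after UV. Each open circle is a gene, placed by its log2 change over untreated psocs cells (x axis), each diamond is the median of the group (red above 0, blue below), the number of genes tested stands in brackets, and the lowest row gives the median, the 25th to 75th percentile (thick bar) and the 10th to 90th percentile (thin bar) of all 4242 genes. Glycogen, heat shock and trehalose genes lie at the top with medians of 3.61, 3.45 and 2.94, and ribosome assembly genes lie at the bottom.

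Among the largest rises were a gene of the pentose phosphate pathway, a hexokinase, a catalase and several genes outside the lists used here. *SOL4*, which codes for a 6-phosphogluconolactonase, read 5690.5, 4590.5 and 4187 at 60 min and 72.8, 56.1 and 38.0 in untreated cells, a change of 6.48 ± 0.41 or 89.0-fold (adjusted p = 2.35e-11). The largest rises were taken from genes whose groups did not overlap. Among them were also *RTC3* (6.38 ± 0.46), *FMP16*, a mitochondrial protein (6.12 ± 0.47), and *MSC1* (5.51 ± 0.46). *HSP30*, a plasma membrane protein that restrains the proton pump, read 4779, 4924 and 2675 at 60 min against 181, 65.9 and 44.9 untreated (5.62 ± 0.64). *EGO4*, outside these lists as well, changed by 5.61 ± 0.48. *RGI1*, a protein of respiratory growth, rose by 5.61 ± 0.60, *HXK1*, a hexokinase, by 5.55 ± 0.59, the cytosolic catalase *CTT1* by 5.47 ± 0.55 and the aldehyde dehydrogenase *ALD3* by 5.35 ± 0.36. In *CTT1* all irradiated arrays (1675, 674 and 1206) lay far above all untreated ones (33.8, 21.7 and 21.2). *TMA10* (6.37 ± 0.78) and *RTN2* (6.20 ± 0.51) were as high, but in each 1 untreated array lay at the lowest value used, so their untreated level is only loosely measured.

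Among the 12 largest falls were genes of ribosome assembly, *AAH1*, *HMS2* and *HO*. *AAH1*, the adenine deaminase that cells shut down when they stop growing, read 50.6, 75.5 and 83.6 at 60 min against 924, 1972 and 1572 untreated, 20.8-fold lower (-4.38 ± 0.35, adjusted p = 5.68e-10). *DBP2*, an RNA helicase of ribosome assembly and mRNA maturation, read 204, 312 and 237 at 60 min and 4460.3, 4429 and 5180.3 untreated (-4.24 ± 0.24, adjusted p = 5.15e-12). Absence of overlap between the groups was a condition of this ranking. *RPL7B*, a ribosomal protein of the large subunit, fell most among its class (246, 428 and 329 at 60 min against 4053, 5191 and 6943 untreated, -4.01 ± 0.38). *HMS2*, a gene of pseudohyphal growth, was at -3.87 ± 0.60, with 1 irradiated array at the lowest value used. The processome subunit *UTP20* changed by -3.73 ± 0.26, the helicases *DBP3* and *DHR2* by -3.63 ± 0.26 and -3.57 ± 0.32, the nucleolar proteins *NSR1* and *NOP13* by -3.52 ± 0.29 and -3.45 ± 0.25, and *HO*, the endonuclease gene of mating-type switching that is read in late G1, by -3.39 ± 0.32.

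Ribonucleotide reductase makes the deoxynucleotides for repair synthesis, and 3 of its 4 subunit genes rose. *RNR3*, the damage-inducible large subunit, read 888, 955 and 966 at 60 min and 79.0, 84.0 and 75.9 in untreated cells, 11.8-fold higher (3.56 ± 0.22, adjusted p = 1.78e-11). The small subunits rose less: *RNR2* read 4056, 3367 and 2898 at 60 min against 1461, 1409.9 and 1652 untreated (1.18 ± 0.16, adjusted p = 5.93e-07), and *RNR4* read 6349, 5588 and 5192 at 60 min against 2982, 3313 and 3374 untreated (0.82 ± 0.10, adjusted p = 2.38e-07). In all 3 genes every irradiated array lay above every untreated one, as in 32.2% of all genes. *RNR1*, the main large subunit, did not pass the test: it read 1071, 1158 and 1196 at 60 min and 1207, 1163 and 1005 untreated, with overlapping arrays and a change of 0.02 ± 0.15 (adjusted p = 0.900). The spread therefore leaves room for a change of -0.28 to 0.33 in *RNR1* (95% interval).

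Of 7 genes that regulate the enzyme, 4 were called higher and 1 lower. *HUG1*, a small inhibitor of the small subunit and a classical target of Crt1, read 1299.8, 2068 and 1449 at 60 min against 57.8, 79.0 and 86.3 untreated, 21.5-fold higher (4.42 ± 0.23, adjusted p = 2.08e-12). *DUN1*, the checkpoint kinase that acts on the reductase, read 244, 269 and 263 at 60 min and 94.0, 75.3 and 82.7 untreated (1.63 ± 0.15, adjusted p = 4.38e-09), and *RFX1*, which encodes Crt1 and is itself repressed by it, read 239, 193 and 201 at 60 min against 93.2, 72.9 and 83.8 untreated (1.34 ± 0.16, adjusted p = 2.17e-07). *WTM1*, which anchors the small subunit in the nucleus, rose by 0.93 ± 0.18. *SML1*, the inhibitor of the large subunit, read 3311, 3521 and 3427 at 60 min and 4484, 4503 and 5323 untreated, a change of -0.48 ± 0.11 (adjusted p = 8.11e-04) that became 0.01 after quantile normalization. *WTM2*, a relative of *WTM1* (0.02 ± 0.15), and *DIF1*, which brings the small subunit into the nucleus (-0.19 ± 0.16), were not called. With quantile normalization 0 of the 7 were lower.

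**Figure D2:**
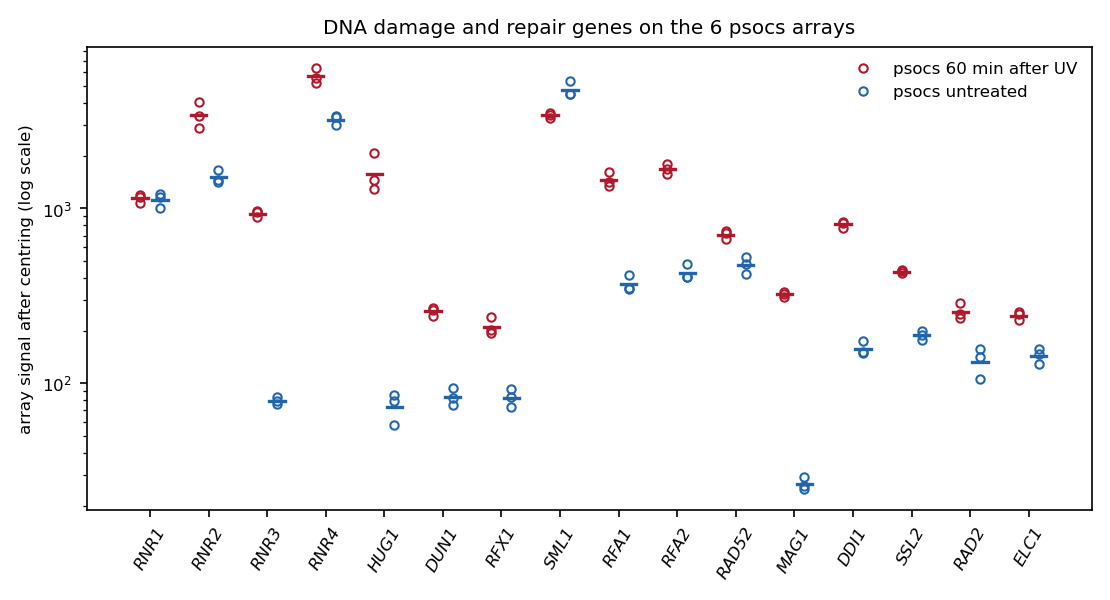
Array signals of 16 DNA damage and repair genes on the 3 psocs arrays at 60 min after UV (red, left of each pair) and the 3 untreated psocs arrays (blue, right), on a log axis, after centring. Bars are geometric means, and heights are not comparable between genes because each has its own probes. Red and blue circles are separate in every gene shown except *RNR1*, and absence of overlap held for 67.1% of all genes.

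The checkpoint and excision repair genes moved in both directions, and many were too dim to test. Of 17 checkpoint genes 11 lay below the filter on dim genes, and of the 6 tested 1 was higher and 3 were lower. Among all genes 30.8% were higher and 34.0% lower. *CHK1*, an effector kinase, rose by 0.82 ± 0.19 (191, 225 and 243 at 60 min against 94.4, 121 and 166 untreated), while *PSY2*, a subunit of the phosphatase that turns Rad53 off, fell (-1.23 ± 0.22), as did *PTC2*, another phosphatase that acts on Rad53 (-0.74 ± 0.15). *TEL1*, a damage-sensing kinase related to Mec1, was not called (-0.32 ± 0.15), but was called lower without irradiated replicate 3 (-0.40) or untreated replicate 1 (-0.46). Without irradiated replicate 3, 5 of the 6 were lower. Of the dim genes that the study discusses, *RAD53* read 79.7, 70.3 and 49.9 at 60 min and 37.6, 27.7 and 24.4 untreated, so that its arrays did not overlap, while *MEC1* read 67.3, 50.6 and 47.5 at 60 min against 134, 127 and 124 untreated and *RAD9* read 32.6, 31.5 and 28.7 at 60 min against 80.9, 103 and 93.5 untreated, both with every irradiated array below every untreated one. Among the 4242 genes tested, all irradiated arrays lay above in 32.2% and below in 35.0%, so separate arrays were common. *RAD53*, *MEC1* and *RAD9* lay below the filter, and with the filter off all 17 checkpoint genes were tested, of which 3 were higher and 6 lower.

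Of 14 excision repair genes 7 were bright enough, and 3 were called higher and 2 lower, beside 30.8% and 34.0% of all genes. *RAD2*, the nuclease that cuts on the 3′ side of the lesion, read 289.8, 248 and 237 at 60 min and 142, 157 and 106 untreated (0.95 ± 0.18, adjusted p = 6.05e-05). *ELC1*, the elongin C that joins Rad7 in the ligase, read 255, 248 and 230.1 at 60 min against 128, 156 and 148 untreated (0.76 ± 0.13, adjusted p = 2.64e-05). Neither had overlapping arrays, which held for 67.1% of all genes. *RAD23* rose only slightly (915, 1118 and 1275 at 60 min against 630.0, 871 and 1004 untreated, 0.41 ± 0.17, adjusted p = 0.0346), its arrays overlapped, and the call was lost without irradiated replicate 2 (0.40) or 3 (0.30) and without untreated replicate 1 (0.22). *RAD7* itself was at -0.13 ± 0.23. Without the filter on dim genes 7 of the 14 were higher, and of the 7 tested 0 were lower without irradiated replicate 2 and 1 without irradiated replicate 3. Among 10 genes of the repair and transcription factor TFIIH, the helicase *SSL2* was the only rise: 439, 426 and 443 at 60 min and 189.9, 199 and 176 untreated (1.21 ± 0.10, adjusted p = 7.37e-10). The 2 falls called in TFIIH were 0 without irradiated replicate 3 and 0 without untreated replicate 1.

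Of 7 genes tested that act on single-stranded DNA and in recombination, 5 were called higher and 1 lower, with a median of 0.58. *RFA1*, the large subunit of the single-strand binding complex RPA, read 1609, 1421 and 1350.2 at 60 min and 416, 352 and 346 untreated (1.98 ± 0.17, adjusted p = 9.39e-10). The middle subunit *RFA2* read 1805, 1682 and 1576 at 60 min against 479, 406 and 405 untreated (1.97 ± 0.17, adjusted p = 1.17e-09), and *RFA3*, the smallest subunit, rose by 0.56 ± 0.14. *RAD52*, the recombination mediator, read 741, 723 and 666 at 60 min and 482, 423 and 529 untreated (0.58 ± 0.13). *SRS2*, a DNA helicase, fell by 1.12 on the log2 scale. Of 13 photolyase and damage tolerance genes 7 were too dim to test. Of the 6 tested 2 were called higher and 1 lower, beside 30.8% and 34.0% of all genes. Their median was -0.11 and the lowest change -1.33. *UBC13* and *MMS2*, the enzyme pair that builds chains on the sliding clamp, rose by 0.99 ± 0.12 and 0.80 ± 0.13, and the ubiquitin-conjugating enzyme *RAD6* was at -0.09 ± 0.13.

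The damage-inducible genes outside these pathways held some of the clearest rises. Of 11 tested 6 were called higher and 1 lower. *MAG1*, the glycosylase that removes alkylated bases, read 313, 325 and 331 at 60 min and 29.3, 25.8 and 24.8 untreated, 12.2-fold higher (3.60 ± 0.20, adjusted p = 3.00e-12). *DDI1*, a ubiquitin shuttle protein that shares its promoter region with *MAG1*, read 775, 834 and 823 at 60 min against 150.4, 149 and 174 untreated (2.37 ± 0.15). In both genes the groups were tight and did not overlap, and absence of overlap held for 67.1% of all genes. *DDR2*, a general stress gene first found after DNA damage, rose by 4.46 ± 0.51, *TSA2*, a peroxiredoxin, by 3.96 ± 0.26, and the nuclease *DIN7* by 0.71 ± 0.20. *DDR48*, another gene named for its response to damage, was at 0.02 ± 0.15, with 9561, 6973 and 6187 at 60 min and 7177, 7052 and 7849.6 untreated, and at 0.62 after quantile normalization. The uracil glycosylase *UNG1* (-0.39 ± 0.21) and the endonuclease *APN1* (-0.15 ± 0.22) were not called, and *OGG1*, the oxoguanine glycosylase, fell (-1.02 ± 0.26). The count of falls was 2 without irradiated replicate 1.

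All tested genes of the proteasome, the protease that degrades ubiquitinated proteins, rose. Each of the 14 core particle genes and each of the 19 regulatory particle genes was called higher, where 30.8% of all genes were, with medians of 1.06 and 1.10. The rises were narrow, from 0.49 to 1.47 in the core and from 0.67 to 1.47 in the regulatory particle. *PRE7* of the core read 3128, 2811 and 2683 at 60 min and 1136, 971 and 1001 untreated (1.47 ± 0.12), and the ubiquitin receptor *RPN10* read 2829, 2209 and 2247 at 60 min against 1103, 919 and 1190.5 untreated (1.18 ± 0.14). In the core, the calls of *PRE5* and *PUP1* were lost without irradiated replicate 3 (0.31 and 0.40) and that of *SCL1* without irradiated replicate 1 (0.65). Of 12 assembly factors and regulators 11 rose, among them the maturation factor *UMP1* (1.45 ± 0.16), the scaffold *ECM29* (1.75 ± 0.19) and *RPN4* (0.87 ± 0.20), the transcription factor of the proteasome genes, while the chaperone *POC4* was not called (-0.31 ± 0.20).

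Of 18 genes that make, attach or remove ubiquitin 13 rose and 0 fell, with a median of 1.01. *UBI4*, the polyubiquitin gene of stressed cells, read 4701, 3553 and 3527 at 60 min and 442, 520.3 and 354 untreated, 8.98-fold higher (3.17 ± 0.23, adjusted p = 1.92e-10). The conjugating enzymes *UBC8* and *UBC5* rose by 2.29 ± 0.26 and 1.58 ± 0.21, the chain-extending ligase *HUL5* by 1.63 ± 0.22, and *SHP1*, a cofactor of the Cdc48 segregase, by 1.23 ± 0.12. No array of these 5 genes overlapped between the groups, which held for 67.1% of all genes.

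The heat shock genes were among the highest. All 10 genes of the disaggregase and small heat shock group rose, with a median of 3.45. *HSP42*, a small heat shock protein, read 2857, 2959.6 and 4187 at 60 min and 75.7, 100.4 and 127 untreated (5.05 ± 0.27, adjusted p = 2.70e-12), and its relative *HSP26* read 8491, 5767 and 5368 at 60 min against 154, 323 and 171 untreated (4.97 ± 0.51). *HSP104*, the disaggregase, rose by 3.64 ± 0.27 and *HSP12*, a membrane stabiliser, by 3.25 ± 0.52. Of 18 genes of the Hsp70 and Hsp90 systems 14 rose and 1 fell, led by *SSA4*, the inducible Hsp70 (4765, 3429 and 3647 at 60 min against 159, 130.5 and 117 untreated, 4.86 ± 0.38), *HSP82*, the inducible Hsp90 (3.95 ± 0.26), and its activator *AHA1* (2.47 ± 0.21). *SSE1*, the 1 that fell (-0.62 ± 0.19), lost its call without irradiated replicate 1 (-0.29). The call was also lost in the values as deposited (-0.43), after quantile normalization (-0.38) and in a fit to the arrays compared alone.

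Other chaperones did not follow. All 7 chaperones and modifiers that act on nascent chains at the ribosome fell, with a median of -0.68, where 34.0% of all genes did. *SSZ1*, an Hsp70 of the ribosome-associated complex, read 790.1, 855 and 659 at 60 min and 2462, 2126 and 2590.0 untreated (-1.64 ± 0.19, adjusted p = 7.30e-08), and *EGD1*, a subunit of the nascent chain complex, fell too (-1.12 ± 0.16). Folding genes of the endoplasmic reticulum had a median of 0.01, and 1 of 11 was higher and 1 lower. *KAR2*, the Hsp70 of that compartment, read 5746, 4415 and 4293 at 60 min and 4121, 5842 and 3667 untreated (0.10 ± 0.22), and the disulfide isomerase *PDI1* was at -0.01 ± 0.13, while after quantile normalization both were called higher (0.69 and 0.54). The 1 rise was lost without irradiated replicate 1 or without untreated replicates 1 or 3, which left 0 of 11 higher, and after quantile normalization 4 of 11 were higher.

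Reserve carbohydrate genes rose in synthesis and in breakdown. All 8 trehalose genes were called higher, with a median of 2.94, among them the synthase *TPS1* (5884, 3993 and 3933 at 60 min against 888, 466 and 499.7 untreated, 2.93 ± 0.29), the phosphatase *TPS2* (2.95 ± 0.32), their regulator *TSL1* (4.75 ± 0.38) and the neutral trehalase *NTH1*, which degrades the sugar (2.65 ± 0.27). All 7 glycogen genes tested rose as well, and without the filter on dim genes all 12. The branching enzyme *GLC3* read 2082, 2083 and 1852 at 60 min and 73.3, 64.9 and 64.6 untreated (4.89 ± 0.51), the synthase *GSY2* rose by 3.45 ± 0.38, and so did the enzymes of breakdown, the phosphorylase *GPH1* (4.32 ± 0.57) and the debranching enzyme *GDB1* (3.61 ± 0.28). *PGM2*, the phosphoglucomutase that feeds both stores, read 3235, 2807 and 3088 at 60 min and 119, 98.1 and 125 untreated, 26.8-fold higher (4.74 ± 0.37).

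The pentose phosphate pathway and sugar uptake split. In the pathway 7 of 13 genes rose and 3 fell: *TKL2*, a transketolase, read 1571, 785 and 909.7 at 60 min and 51.7, 64.7 and 47.0 untreated (4.27 ± 0.32), *GND2* rose by 4.15 ± 0.23 and *ZWF1*, the enzyme of the first step, by 1.08 ± 0.20, while *RKI1*, the ribose-5-phosphate isomerase, fell to 66.6, 78.4 and 73.9 at 60 min, against 556, 576 and 700.1 untreated (-3.06 ± 0.27, adjusted p = 1.53e-09). Of 10 genes of hexose uptake and phosphorylation 5 rose and 4 fell, beside 30.8% and 34.0% of all genes. The rises were the kinases *HXK1*, *GLK1* (3.33 ± 0.27) and *EMI2* (3.11 ± 0.41) and the high-affinity transporters *HXT6* (3.58 ± 0.46) and *HXT7* (3.03 ± 0.40), whose probe sets are shared, and the falls included the low-affinity transporter *HXT1* (-1.22 ± 0.32). Glycolysis itself changed little: 11 of 15 genes were called lower and 1 higher with a median of -0.37, but 3 were lower in the values as deposited and 0 after quantile normalization, where the median was 0.09. Without irradiated replicate 2 or 3 the lower count was 5 or 4, and without untreated replicate 3 it was 4. In glycerol metabolism and the GABA shunt 11 of 15 rose and 2 fell, led by the glutamate decarboxylase *GAD1* (3636, 3428 and 3943 at 60 min against 136, 91.5 and 65.3 untreated, 5.30 ± 0.47) and the glycerol dehydrogenase *GCY1* (4.15 ± 0.36).

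In several of these steps a pair of related proteins moved apart. The 15 pairs plotted were chosen after the values were seen and because they parted, so their number is no result. *GPD1*, the stress-induced dehydrogenase of glycerol synthesis, read 4364, 3759 and 3380.3 at 60 min against 883, 412 and 467 untreated (2.78 ± 0.25), and its relative *GPD2* read 288, 387 and 362 at 60 min against 453, 581 and 771 untreated (-0.78 ± 0.22). The phosphatases of the next step parted in the same way, as *GPP2* rose (2.67 ± 0.33) and *GPP1* fell (-1.05 ± 0.17). The other clear cases were *TKL2* beside *TKL1* (-1.09 ± 0.12), *URA10* (1.78 ± 0.33) beside *URA5* (-1.10 ± 0.13), both orotate phosphoribosyltransferases, *URA8* (0.63 ± 0.18) beside *URA7* (-3.14 ± 0.26), both CTP synthases, and *GSP2* (3.05 ± 0.33) beside *GSP1* (-0.77 ± 0.18), both forms of the GTPase Ran, although the call of *GSP1* was lost after quantile normalization (-0.30). In other pairs the relative was not called, as in *RNR3* beside *RNR1*, *NQM1* (4.46 ± 0.19) beside the transaldolase *TAL1* (0.07 ± 0.14) and *SOL4* beside *SOL3* (0.21 ± 0.15).

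**Figure D3:**
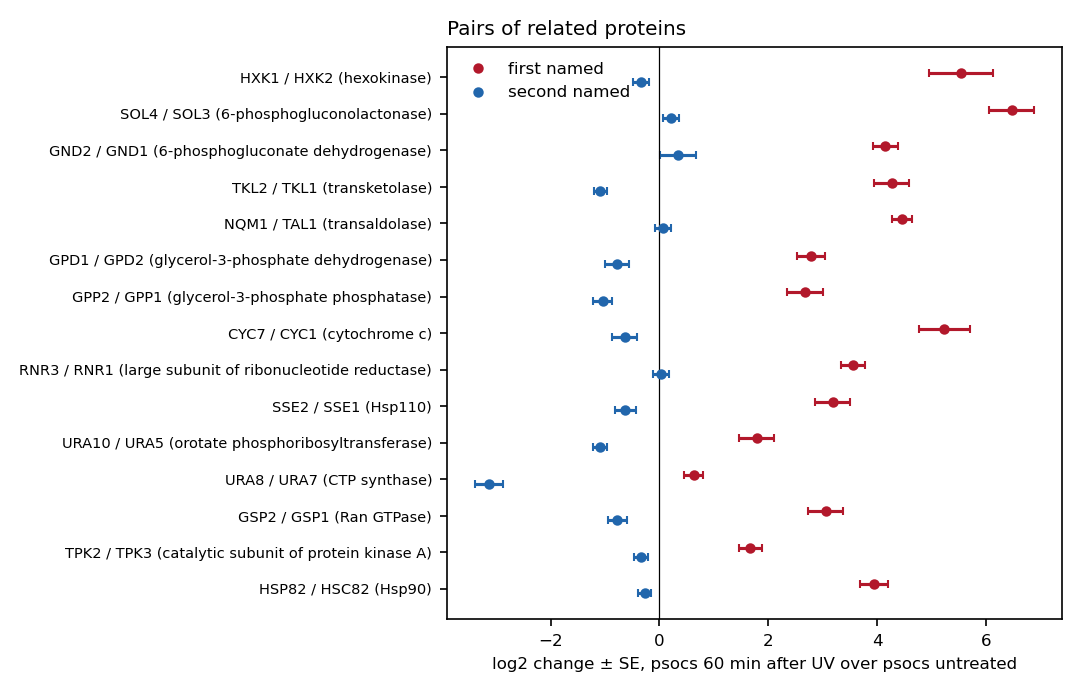
Log2 change ± SE of 15 pairs of related proteins in psocs cells 60 min after UV over untreated psocs cells (x axis). Red points are the first named gene of each pair and blue points the second. All red points lie above 0, from 0.63 in *URA8* to 6.48 in *SOL4*, and the blue points lie between -3.14 in *URA7* and 0.34 in *GND1*, which was at -0.37 without untreated replicate 3.

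Mitochondrial respiration and defence against oxidants rose in most members. In the TCA and glyoxylate cycles 13 of 18 genes were higher and 0 lower, among them *SDH2*, a succinate dehydrogenase subunit (2382, 1891 and 1627 at 60 min against 580.2, 301 and 298 untreated, 2.38 ± 0.33), the malate dehydrogenase *MDH1* (1.97 ± 0.25) and the citrate synthase *CIT1* (1.74 ± 0.24). In the respiratory chain and ATP synthase 25 of 34 were higher and 1 lower, with a median of 0.64. *CYC7*, the minor cytochrome c, read 646, 956 and 1073 at 60 min and 20.9, 21.3 and 27.7 untreated, 37.7-fold higher (5.24 ± 0.46), and the cytochrome c1 gene *CYT1* rose by 1.97 ± 0.28. *CYC1*, the major cytochrome c and the 1 lower gene (-0.64 ± 0.23), lost its call without untreated replicate 1 (-0.50). Of 65 mitochondrial ribosomal proteins 20 were higher and 1 lower, a share close to the 30.8% of all genes. In antioxidant defence 16 of 25 rose and 0 fell: beside *CTT1*, the mitochondrial peroxiredoxin *PRX1* read 2425, 1879.5 and 1769.6 at 60 min and 141, 122 and 94.3 untreated (4.09 ± 0.27), the glutathione peroxidase *GPX1* rose by 3.74 ± 0.40 and the mitochondrial superoxide dismutase *SOD2* by 2.27 ± 0.21.

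Genes of self-digestion rose too. All 6 autophagy genes bright enough to test were called higher, with a median of 1.88, and without the filter on dim genes 17 of 19 were. *ATG8*, the ubiquitin-like protein of the autophagosome membrane, read 2305, 1838 and 1877 at 60 min and 314, 164 and 166 untreated (3.29 ± 0.25, adjusted p = 3.02e-10), and its conjugating enzyme *ATG3* rose by 2.28 ± 0.20. Of 10 vacuolar proteases and their regulators 9 rose, led by *TFS1*, an inhibitor of carboxypeptidase Y (7409.6, 6126 and 5788 at 60 min against 317, 275 and 205 untreated, 4.62 ± 0.34), the aminopeptidase *APE1* (2.86 ± 0.27) and the protease *PRB1* (2.19 ± 0.25), and the master protease *PEP4* rose less (0.83 ± 0.19).

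Ribosome production fell at every stage measured. All 46 genes of the small subunit processome and all 54 of large subunit assembly were called lower, where 34.0% of all genes were, with medians of -2.28 and -2.55. *UTP20* read 43.0, 52.0 and 46.8 at 60 min and 652, 558 and 673 untreated (adjusted p = 6.77e-11), and *RRP5*, which works on both subunits, read 162, 224 and 179 at 60 min against 1749.9, 1352 and 1789.7 untreated (-3.12 ± 0.25). *HAS1*, a helicase of both subunits, fell to 84.1, 149 and 124 at 60 min, against 1049, 1097 and 1251 untreated (-3.28 ± 0.24), and *NOG1*, a GTPase of the large subunit, changed by -3.23 ± 0.29. The mildest members were at -0.57 in the processome and -0.55 in large subunit assembly. Of 13 genes of RNA polymerase I, which reads the ribosomal DNA, 11 fell: the largest subunit *RPA190* read 246, 586 and 435 at 60 min against 2381, 2543 and 3136 untreated (-2.75 ± 0.24), the next largest, *RPA135*, was at -2.75 ± 0.22, whereas the factor *RRN10* was not called (0.25 ± 0.17). Of 20 genes of RNA polymerase III 14 fell, such as its largest subunit *RPO31* (-2.41 ± 0.26), and 2 rose, 1 without irradiated replicate 3 or untreated replicate 1. Of 12 of RNA polymerase II 7 fell, among them *RPO26* (-1.66 ± 0.17) and *RPB5* (-1.23 ± 0.15), which all 3 polymerases share, and 1 rose, 0 without irradiated replicate 1 or untreated replicate 2.

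The ribosomal proteins fell by smaller medians. Of 48 tested large subunit genes 47 were lower and 1 higher (median -1.24), and all 33 small subunit genes were lower (median -1.19). A further 34 of the 82 large subunit genes and 23 of the 56 small subunit genes have no probe set of their own and were not measured singly. *RPS26B* read 295, 407 and 353 at 60 min and 2148, 2373 and 2776 untreated (-2.79 ± 0.27), and *RPL22B*, whose protein also controls splicing of other transcripts, read 359, 347 and 361 at 60 min against 1266, 1393 and 1527 untreated (-1.97 ± 0.12). *RPL15B*, the exception, read 1729.6, 1259.9 and 1264 at 60 min and 1061, 854 and 1127 untreated (0.48 ± 0.14, adjusted p = 0.00432).

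Translation factors and tRNA enzymes fell with them. Of 33 initiation and elongation factor genes 29 were lower and 0 higher, with a median of -0.98. The scaffold *TIF4631* of the cap-binding complex read 196, 299.9 and 263 at 60 min and 974, 889 and 1041 untreated (-1.95 ± 0.21), and *PAB1*, the poly(A) binding protein, read 1310.0, 1324 and 1259.7 at 60 min against 3414, 3036 and 3496 untreated (-1.35 ± 0.13). All 21 aminoacyl-tRNA synthetases fell, with a median of -1.15, and *MES1*, which charges the methionine tRNAs, read 1060.3, 1109 and 1039 at 60 min and 3202, 3024 and 3908 untreated (-1.65 ± 0.15). Of 23 genes of tRNA modification 22 fell, with a median of -1.74: the methyltransferases *TRM1* and *TRM2* changed by -2.71 ± 0.24 and -2.51 ± 0.20 and the pseudouridine synthase *PUS7* by -2.33 ± 0.21.

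Synthesis of the building blocks fell in most members. Of 20 purine genes 16 were lower and 1 higher. *IMD4*, an IMP dehydrogenase, read 445, 748 and 762 at 60 min and 3863, 3995 and 4526 untreated (-2.70 ± 0.18), and *GUA1*, the next enzyme towards GMP, read 582, 761 and 593 at 60 min against 3795, 3658 and 4240.2 untreated (-2.60 ± 0.17). The exception was *ADE16* (0.89 ± 0.14), an isoenzyme of the last steps towards IMP. Of 15 pyrimidine genes 11 were lower and 3 higher: *URA1*, the dihydroorotate dehydrogenase, fell (967, 1012 and 864 at 60 min against 5118, 4224 and 5821 untreated, -2.41 ± 0.16), while *CDC21*, the thymidylate synthase that supplies dTMP, rose (337, 279 and 272 at 60 min against 153, 121 and 105 untreated, 1.24 ± 0.18). Of 49 genes of amino acid synthesis 35 were lower and 1, *LYS1* (0.84 ± 0.20), higher. *ILV3*, which serves the branched-chain amino acids, changed by -1.53 ± 0.16 and *GLT1*, the glutamate synthase, by -1.48 ± 0.20. In the sulfur and methionine group 10 of 17 were lower and 2 higher, beside 34.0% and 30.8% of all genes. The lower count was 6 without irradiated replicate 2 or without untreated replicate 1, a share close to that of all genes. *SAH1*, the hydrolase of the methyl cycle, fell by 1.42 and *MET3*, the first enzyme of sulfate assimilation, rose by 1.04 ± 0.19.

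Lipid, metal and wall genes moved in both directions or downwards. Against 30.8% higher and 34.0% lower among all genes, of 8 genes of peroxisomal beta-oxidation 3 were higher and 4 lower, of 23 ergosterol genes 2 were higher and 8 lower, the lower share close to that of all genes, and of 16 iron uptake genes 0 were higher and 7 lower. The iron oxidase *FET3* of the cell surface read 2282, 1573 and 1120.4 at 60 min and 4690.5, 4069.7 and 6326 untreated (-1.64 ± 0.26), and its partner permease *FTR1* changed by -1.30 ± 0.25. Of 12 phosphate and zinc genes 2 were higher and 7 lower, and the zinc transporter *ZRT1* read 2600.4, 2702 and 1999 at 60 min against 6654, 6478 and 6049 untreated (-1.40 ± 0.24). In the cell wall 6 of 26 genes were higher and 11 lower. *SPI1*, a wall protein of stressed and resting cells, read 4369, 4092 and 4259 at 60 min and 305, 271 and 278 untreated (3.90 ± 0.40), and the glucanase *SCW10* read 976, 793 and 698 at 60 min against 2726, 2579 and 2752 untreated (-1.72 ± 0.17), so that the wall genes did not move as a block. The ergosterol and wall medians of -0.22 and -0.22 became 0.01 and 0.02 after quantile normalization.

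Cell cycle genes were lower where they act in G1 entry, mitosis and cell separation. Of 12 cyclins and CDK regulators tested 7 were lower and 1 higher, and of the G1 cyclins *CLN1* read 82.6, 82.5 and 81.2 at 60 min against 319.7, 226 and 234 untreated (-1.64 ± 0.23) and *CLN2* read 123, 93.1 and 113 at 60 min against 255, 259 and 249.9 untreated (-1.22 ± 0.18). The B-type cyclin *CLB1* fell (-1.23 ± 0.21), and so did *FAR1*, the CDK inhibitor of mating arrest (-1.56 ± 0.20), whereas *CDC28*, the kinase itself, rose (0.73 ± 0.19). Of 12 genes of mitosis and cytokinesis 10 fell: the polo kinase *CDC5* read 172, 178 and 169 at 60 min and 813, 652 and 698 untreated (-2.05 ± 0.19, adjusted p = 3.97e-09), and *CHS2*, the chitin synthase of the septum, read 209, 202 and 194 at 60 min against 745, 615 and 796 untreated (-1.83 ± 0.15). In DNA replication 7 of 22 were lower, such as the helicase subunit *MCM7* (-1.57 ± 0.17), and 3 were higher, such as the primase subunit *PRI2* (285, 293 and 265 at 60 min against 151, 109.7 and 97.9 untreated, 1.26 ± 0.18). The lower share of the replication genes was close to the 34.0% of all genes. The group had a median of -0.08 that became 0.12 without centring.

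All 12 genes of daughter-cell separation fell, with a median of -1.66. These genes are read in the daughter after mitosis. *EGT2* read 321, 224 and 278 at 60 min and 1738, 1504 and 1538 untreated (-2.55 ± 0.18, adjusted p = 7.67e-11), the glucanase *DSE2* read 1205, 969 and 966 at 60 min against 4457, 4653 and 4966 untreated (-2.17 ± 0.18), and the mitotic exit regulator *AMN1* changed by -2.01 ± 0.16. All 4 histone genes with a probe set of their own and enough signal fell as well, and the H2B gene *HTB2* read 411, 510.2 and 396 at 60 min and 2591, 2888 and 3019 untreated (-2.70 ± 0.19). Of 35 nuclear pore and transport genes 26 were lower and 1 higher: *KAP123*, the importin that carries ribosomal proteins, read 150.1, 279.9 and 248 at 60 min and 1169, 1614 and 1882 untreated (-2.81 ± 0.25), and the exception was *GSP2*, which read 1249, 1881 and 1956 at 60 min against 162, 331 and 150.3 untreated.

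Of 20 transcription factor genes of stress and growth 7 were higher and 8 lower, close to the 30.8% and 34.0% of all genes. *HAP4*, the activator of respiratory genes, read 614, 668 and 492 at 60 min and 183, 117 and 118 untreated (2.10 ± 0.37), and *HSF1*, the heat shock factor, read 681, 593 and 556 at 60 min against 318, 238 and 215 untreated (1.26 ± 0.17). On the other side stood *TOD6*, a repressor of ribosome assembly genes (-2.73 ± 0.38), *IFH1*, a coactivator of ribosomal protein genes (-2.08 ± 0.49), and *RAP1*, which binds their promoters (-1.04 ± 0.15). Of 22 genes of Ras, protein kinase A and Tor signalling 11 were higher and 7 lower, the lower share close to that of all genes. *GPG1*, a subunit that acts with the glucose-sensing G protein, read 964, 711 and 592 at 60 min and 59.7, 128 and 41.9 untreated (3.44 ± 0.40), and *PDE1*, which breaks down cAMP, rose by 1.63 ± 0.17. *RAS1* fell to 170.5, 197 and 214 at 60 min, against 755, 728 and 599.8 untreated (-1.84 ± 0.18), and the kinase *TOR1* fell to 80.2, 82.3 and 74.1 at 60 min, against 218, 209.7 and 193 untreated (-1.39 ± 0.22). The loading control *ACT1* read 8819.9, 7251 and 6616 at 60 min and 10093, 8630.2 and 10466 untreated, and its change of -0.37 ± 0.13 (adjusted p = 0.0131) became 0.20 after quantile normalization, and its call was lost without irradiated replicate 3 (-0.28) or untreated replicate 3 (-0.31).

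How much of the response was already present at 15 min was seen on the psocs arrays of that time, which share the untreated arrays as reference. The 3′ to 5′ ratio of the control transcript *SRB4*, a sign of RNA integrity, was 3.35, 3.22 and 3.13 untreated, 5.64, 4.46 and 5.59 at 15 min and 3.58, 3.74 and 2.42 at 60 min, so that in this control the 15 min arrays stood above both other groups. *ACT1* was above both as well (1.35, 1.24 and 1.36 at 15 min). *SPT15* overlapped both, with 3.02, 3.51 and 2.79 at 15 min against 3.46, 2.36 and 2.55 untreated. The part of RNA integrity in the comparisons with 15 min was not tested. At 15 min 911 genes were called higher (21.5%) and 522 lower (12.3%). Of the 1307 genes higher at 60 min 714 were also called higher at 15 min, 585 were not called and 8 were called lower, and of the 1441 lower at 60 min 389 were also lower at 15 min, 1025 were not called and 27 were higher. Set directly against each other, 60 min exceeded 15 min in 941 genes (22.2%) and fell short of it in 1361 (32.1%). The heat shock group was near its full height at 15 min (median 2.99), and 2 of its 10 members were higher and 2 lower at 60 min than at 15 min. Ribosomal proteins had medians of 0.09 and 0.08 (large and small subunit) at 15 min, and 47 of 48 and 33 of 33 were lower at 60 min than at 15 min. The synthetases (median 0.12 at 15 min, 21 of 21 lower at 60 min than at 15 min) followed the same order. The processome had begun to fall by 15 min (median -0.61), where 20 of 46 genes were called lower against 12.3% of all genes, and 43 of 46 were lower at 60 min than at 15 min.

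Late and early genes stood out on single arrays. The largest changes after 15 min were taken from genes whose 15 and 60 min arrays did not overlap. *HBT1*, a protein of polarised growth, read 49.7, 66.9 and 70.0 untreated, 90.3, 87.6 and 63.8 at 15 min and 1080.4, 1324 and 1659.5 at 60 min (4.07 ± 0.32 for 60 min over 15 min, adjusted p = 1.31e-09). *TKL2* and *GND2* were as late (3.85 ± 0.32 and 3.82 ± 0.23), and *RNR3* read 79.0, 84.0 and 75.9 untreated, 108, 83.8 and 74.1 at 15 min and 888, 955 and 966 at 60 min (3.42 ± 0.22). *HUG1* (3.77 ± 0.23), *NQM1* (3.63 ± 0.19) and *ALD3* (3.18 ± 0.36) also belong to the 8 largest rises after 15 min. *RNR1* fell at 15 min (-0.61 ± 0.15) and was higher at 60 min than at 15 min (0.64 ± 0.15). The opposite order held for *CUR1* and *BTN2*, sorting factors for misfolded proteins: *BTN2* read 122, 78.7 and 114 untreated, 2389, 1849 and 2051 at 15 min and 1241, 1546 and 1142 at 60 min (-0.68 ± 0.23 for 60 min over 15 min), and *CUR1* was lower at 60 min than at 15 min as well (-1.48 ± 0.32). *RPN4* read 449, 322 and 362 untreated, 1156, 1007 and 932 at 15 min and 861, 643 and 582 at 60 min (-0.58 ± 0.20 for 60 min over 15 min), while the 19 regulatory particle genes of its target complex had medians of 0.45 at 15 min and 1.10 at 60 min. *DBP2* was at -0.36 ± 0.24 after 15 min and -4.24 ± 0.24 after 60 min. *RAD52* was among the 8 genes that were lower at 15 min (-0.43 ± 0.13) and higher at 60 min. Of the 170 genes called higher at 15 min and not at 60 min, the carbonic anhydrase *NCE103*, singled out after its values were seen, had the largest change at 15 min and read 627, 709 and 760.0 untreated, 2646, 2894 and 3767 at 15 min and 610.0, 695 and 756 at 60 min (2.14 ± 0.24 at 15 min, -0.03 ± 0.24 at 60 min).

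**Figure D4:**
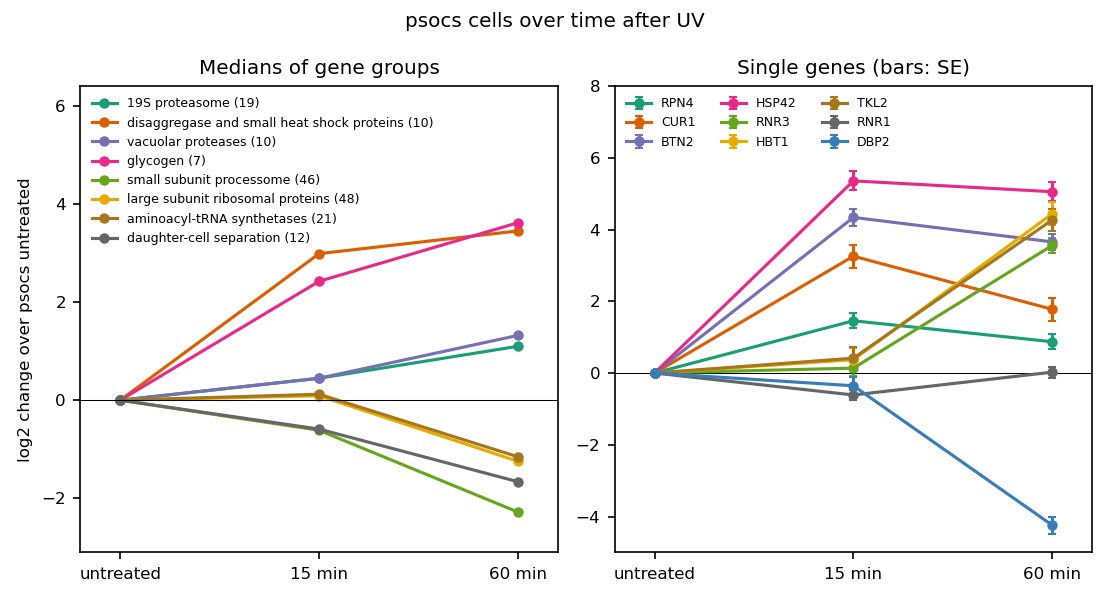
Log2 change over untreated psocs cells at 15 and 60 min after UV (y axis), as medians of 8 gene groups (left, number of genes in brackets) and for 9 single genes with SE (right). Heat shock genes, *HSP42* and *BTN2* were high by 15 min, *RNR3*, *HBT1* and *TKL2* rose between 15 and 60 min, and ribosomal proteins and *DBP2* fell in the same interval.

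Whether the response of the SOCS-box mutant differed was tested as the psocs change minus the pRAD7 change at 60 min. The strains also differed in *RAD7* signal, which was lower in untreated psocs cells, and this cannot be told apart from the mutation here. No gene was called by limma (0 of 4242, 0.0%), 35 had an unadjusted p under 0.05, and the smallest adjusted p was 1.0. With no difference and independent arrays, a share of 0.05 of the genes should have such a p, and 35 is fewer. The test of this difference was therefore probably too strict and its intervals too wide, and 0 calls do not show equal responses. Same-numbered psocs and pRAD7 arrays deviated together, which the main fit leaves out. The part of this in the count was not tested. In pRAD7 cells 1219 genes were higher (28.7%) and 1530 lower (36.1%). The 95% interval of the difference lay within 2-fold either way in 3627 genes (85.5%), and its median half-width was 0.51. These intervals hold for 1 gene at a time. A call needed an adjusted p below 0.05 over 4242 genes, so a typical gene had to differ by more than that half-width. *RNR3* read 888, 955 and 966 in psocs cells at 60 min, against 755, 882 and 881 in pRAD7 cells at 60 min. Untreated, it read 79.0, 84.0 and 75.9 in psocs cells, against 78.8, 88.3 and 43.2 in pRAD7 cells, so that the changes differed by -0.09 (95% interval -0.73 to 0.55). For *RNR2* and *RNR4* the difference was 0.06 (-0.39 to 0.52) and 0.14 (-0.16 to 0.44), for *HUG1* 0.06 (-0.60 to 0.73) and for *DUN1* 0.24 (-0.21 to 0.68). *RFX1* rose by 1.34 in psocs and 0.84 in pRAD7 cells, and the interval of its difference, 0.02 to 0.99, did not hold 0, but its adjusted p was 1.0. For *RFA1* the interval was -0.45 to 0.51, for *MAG1* -0.37 to 0.78 and for *UBI4* -0.61 to 0.76.

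In psocs *rad23*Δ cells 1324 genes were higher at 60 min than untreated (31.2%) and 1222 lower (28.8%). The psocs response differed from theirs in 398 genes (9.38%), and the change was higher with *RAD23* in 180 (4.24%) and lower in 218 (5.14%), while 1034 had an unadjusted p under 0.05. The higher count was 105 without untreated psocs replicate 2, the lower count 134 without untreated psocs replicate 3, and in a fit to the arrays compared alone 62 were higher and 78 lower. *ECM29*, the proteasome scaffold, read 848, 625 and 781 at 60 min and 239.8, 172 and 266 untreated in psocs cells, against 157 and 245 at 60 min and 488 and 555 untreated in psocs *rad23*Δ cells, a difference of 3.15 ± 0.30 (adjusted p = 1.40e-06), on a probe set whose probes are shared or incomplete. *MAG1* rose by 3.60 in psocs and 2.35 in psocs *rad23*Δ cells (1.25 ± 0.31), and *TSL1* (1.99 ± 0.61), *TPS2* (1.83 ± 0.51), *GDB1* (1.53 ± 0.44) and *CIP1*, a CDK inhibitor of stressed cells (1.97 ± 0.47), differed in the same direction. *SML1* was lower by 0.48 in psocs cells and at 0.19 in psocs *rad23*Δ cells (-0.66 ± 0.18). Its psocs change became 0.01 after quantile normalization. *COX1*, a mitochondrially encoded oxidase subunit (-2.02 ± 0.22), *DBP2* (-1.45 ± 0.38), *GUA1* (-0.91 ± 0.26), *URA5* (-0.80 ± 0.21) and *LYS1* (-1.12 ± 0.32) also differed downwards. The largest downward differences were in tRNA genes: 7 of the 8 largest, beside *COX1*, were tRNA genes, and of 58 tRNA genes tested, a class counted after the values were seen, 36 were called lower in this difference and 0 higher, where 5.14% and 4.24% of all genes were. *YNCK0005C* read 712, 701 and 595 at 60 min and 729, 748 and 692 untreated in psocs cells, against 2496 and 2094 at 60 min and 632 and 454 untreated in psocs *rad23*Δ cells (-2.21 ± 0.37), and *SUP19* differed by -2.03 ± 0.43. All 58 lie on probe sets whose probes are shared or incomplete, so that single tRNA genes cannot be told apart. In psocs cells 2 of the 58 were higher and 5 lower at 60 min, while 42 were higher at 15 min (median 0.83). Of the reductase genes and their regulators none but *SML1* was called: the difference was 0.54 ± 0.35 for *RNR3*, 0.55 ± 0.36 for *HUG1* and 0.68 ± 0.24 for *DUN1* (adjusted p = 0.361, 0.376 and 0.0772).

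Gene length, from annotated start to end with introns in the RefSeq table of protein-coding genes, moved with this difference. Its median was -0.26, -0.14, -0.07 and 0.25 over 4 equal bins of protein-coding genes from the shortest to the longest, and the median length was 2896.5 bases for the 180 genes and 792.0 bases for the 178 of the 218 that have one, against 1224.0 over all genes tested with a known length. *ECM29*, *GDB1* and *TSL1*, called upwards, have 5607, 4611 and 3297 bases, and *SML1*, called downwards, has 315. Other named genes went against this order: *CIP1* (1146) and *MAG1* (891) upwards, and *GUA1* (1578), *DBP2* (2643) and *COX1* (12884) downwards. The *SRB4* ratio was 3.58, 3.74 and 2.42 in psocs cells at 60 min and 3.35, 3.22 and 3.13 untreated, against 5.27 and 5.17 at 60 min and 4.65 and 2.46 untreated in psocs *rad23*Δ cells. At 60 min the *ACT1* ratio was 0.773, 1.22 and 1.23 in psocs cells, against 1.23 and 1.37 in psocs *rad23*Δ cells. The *SPT15* ratio was 9.67, 3.03 and 2.89, against 5.26 and 2.34, so that this control overlapped. The part of RNA integrity in the difference was not tested. The psocs change at 60 min on its own had medians of 0.14, 0.07, -0.08 and -0.31 over the same bins.

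**Figure D5:**
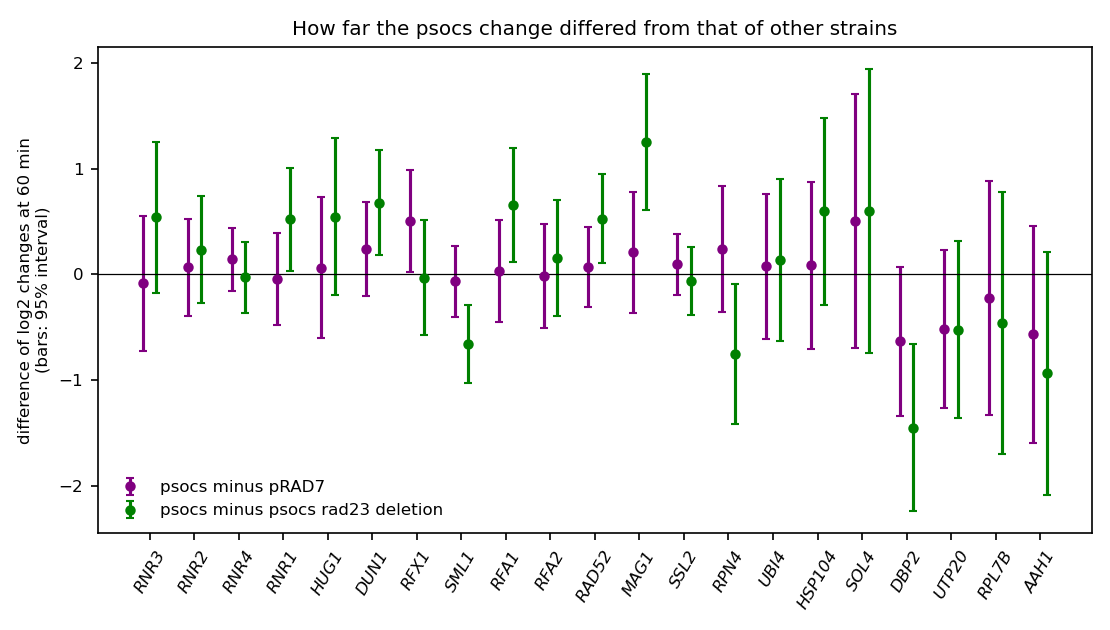
Difference between the log2 change in psocs cells at 60 min and that in pRAD7 cells (purple) or in psocs *rad23*Δ cells (green), with 95% intervals, for 21 genes of the response (y axis: difference of log2 changes). No purple difference was called, while among the green ones *MAG1*, *SML1* and *DBP2* were.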

How the data were processed

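RNA of 30 yeast samples was hybridised to 1-colour Affymetrix Yeast S98 arrays. The deposited values are intensity values, MAS 5.0 signals that the authors computed in Affymetrix Expression Console (version not given in the sources used here), and each array carries one trimmed mean. Signals were raised to a floor of 8.50, the 10th percentile, turned to log2 and centred on the median of each array, and per-array values are signals after this step. Of 9335 probe sets 6504 have 1 gene name in the platform annotation, 328 have several and 2443 none. Each of the 5656 genes was read from its brightest probe set, and genes under the 25th percentile of mean signal were left out. limma 3.58.1 (R 4.3.3) with a trended eBayes was fitted to all 30 arrays and 12 groups, and p-values were adjusted by Benjamini-Hochberg over 4242 genes. Python 3.11.15, pandas 2.3.3 and matplotlib 3.10.9 served for summaries and plots. The fit was run on simulated data with independent arrays and few changed genes. The real data differ in both respects, so that run does not vouch for the p-values given here.

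The labels call the replicates biological but do not say that they came from separate cultures, so the p-values rest on the spread between the arrays, which may be technical. The number of arrays limits the precision, and the median standard error was 0.18. The labels state no pairing by replicate number. Same-numbered irradiated and untreated psocs arrays deviated together from their group means (r = 0.51, 0.18 and 0.34). Irradiated replicate 3 did so as much with untreated replicate 2 (0.35), so the pairing is uncertain. Same-numbered arrays of psocs and pRAD7 also deviated together at 60 min (0.21, 0.36 and 0.35) and untreated (0.19, 0.50 and 0.15). Those of 60 and 15 min did not (0.02, 0.18 and 0.04).

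Genes were named from those the study discusses, the 12 largest changes a direction without overlap, the members of short lists with the 8 largest of longer ones and called members that moved against their list, the 8 largest changes a direction between 15 and 60 min, and up to 8 called a direction in each difference between strains. This rule picked 531 genes. The text names 200 tested genes, 198 of them from the rule, taken for their known role and mostly for calls that held with each array left out, and *GSP1* and *NCE103* were added after their values were seen. Members and gene lists were chosen with earlier results of these data known. Alternatives were no filter on dim genes or a stricter one at the 50th percentile, no floor, no centring, quantile normalization, the replicate block, a fit to the compared groups alone, the mean of all probe sets, no trend and each psocs array left out.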

Additional observations from a re-analysis of the deposited data

Results flagged for a closer look

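For 14 genes named above the test of the difference itself found unequal changes at 60 min in psocs cells and in psocs *rad23*Δ cells. The psocs change minus the psocs *rad23*Δ change was 3.15 for *ECM29*, 1.99 for *TSL1*, 1.97 for *CIP1*, 1.83 for *TPS2*, 1.53 for *GDB1* and 1.25 for *MAG1*. It was -0.66 for *SML1*, -0.80 for *URA5*, -0.91 for *GUA1*, -1.12 for *LYS1*, -1.45 for *DBP2*, -2.02 for *COX1*, -2.03 for *SUP19* and -2.21 for *YNCK0005C*. *ECM29* rose in psocs cells (1.75) and fell in psocs *rad23*Δ cells (-1.41), while in pRAD7 cells it rose by 2.04.

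Probe sets without a single gene name lay outside every comparison above. Of 2771 such probe sets 1206 were bright enough to test, and 54.6% of these were called between psocs cells at 60 min and untreated ones, 270 higher and 388 lower, beside 62.1% of the probe sets with 1 gene name.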

How the results depend on the processing

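Between 60 min and untreated psocs cells, the counts of 1307 higher and 1441 lower genes stayed within 1.5 times under every alternative, from 880 and 1005 of 2828 genes tested with the stricter filter to 1686 and 1695 of 5656 without one. They were 1640 and 1126 in the values as deposited, 1371 and 1414 after quantile normalization and 1201 to 1280 and 1289 to 1423 with 1 array left out. With the replicate block they were 1317 and 1451, and the block changed no call of a gene named. For 60 min over 15 min, the higher count was 560 with the stricter filter, which tests 2828 genes in place of 4242, and 1622 as deposited. The lower count was 894 as deposited. With 1 array left out, they were 784 to 939 and 1226 to 1286, where leaving out 15 min arrays was chosen after seeing the data. For psocs over psocs *rad23*Δ, the higher count was 112 of 2828 genes with the stricter filter, 511 as deposited and 62 in the fit to only the groups compared, and the lower count was 88 as deposited, 142 after quantile normalization and 78 in the fit to only the groups compared. With 1 array left out they were 105 to 189 and 134 to 243. The count for psocs over pRAD7 was 0 in each direction under every alternative run. Quantile normalization reversed *ACT1* (0.20) and *SML1* (0.0097) and the medians of glycolysis (0.0865), ergosterol (0.0066), cell wall (0.0158) and control and marker genes (0.17). The causes were not tested. Small changes in either direction therefore depend on the scaling, and dim genes limit what the arrays show of the checkpoint and repair genes.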
